A study of Mus musculus with 9 samples.

Results

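Organoids grown from adenomas of APCmin/+ mice, which carry a truncating mutation in 1 copy of the tumor suppressor gene Apc, were cultured with or without the non-steroidal anti-inflammatory drug (NSAID) sulindac, and the RNA of 3 sulindac-treated and 3 untreated adenoma samples was sequenced. These 6 samples of the 9 in the series are compared here over every gene with enough counts. The other 3 samples (MIN) are organoids from the normal-appearing gut epithelium of Apc-mutated mice, and their levels are given side by side without a test. All groups share the Apc mutation and a culture medium with Noggin, EGF, bFGF and R-spondin1, the latter a protein that strengthens Wnt signals. The series text calls the 3 samples of a group biological replicates, but the sources used here do not say how many mice or polyps they came from, which stretch of gut was used, or the dose, duration and vehicle of the sulindac treatment. Organoids hold epithelium without the connective tissue, vessels and immune cells of a polyp. Total counts were 30881206 to 35410964 per sample, so that 3 counts correspond to 0.0839 to 0.0989 counts per 1000000 counts (CPM) in the 6 samples, and levels below this cannot be told from 0. In bulk RNA, fewer cells of a type and less RNA per cell cannot be told apart.

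Sulindac is a prodrug that cells and gut bacteria reduce to sulindac sulfide, an inhibitor of the cyclooxygenases, the enzymes that start prostaglandin synthesis. Several signaling systems that the gene lists below follow are background to the results. NRF2 (gene Nfe2l2) is a transcription factor that KEAP1 holds back until electrophiles or oxidants release it, after which it turns on glutathione and thioredoxin genes. The aryl hydrocarbon receptor AHR is activated by planar small molecules and turns on the Cyp1 family. ATF4 responds to shortage of amino acids and to other stresses through translation. Where Apc function is lost, beta-catenin escapes degradation and drives genes together with TCF factors, among them secreted inhibitors that feed back on the pathway.

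Of 23955 gene symbols, 12962 had enough counts to be tested. With edgeR's quasi-likelihood test and a false discovery rate (FDR) held at 1%, 1078 genes were higher in the sulindac-treated samples (8.32% of those tested) and 1179 were lower (9.10%). These shares are the background against which the counts of each gene list below are to be read. Changes of at least 2-fold were more often decreases, 703 against 365. The CPM ranges of the groups did not overlap in any of the 1078 higher or 1179 lower genes. A lack of overlap in a called gene therefore adds nothing to its call. Sulindac and adenoma samples were set apart on the first principal component, which held 72.0% of the variance, and log2 CPM correlated at 0.982 to 0.991 within groups and 0.944 to 0.968 between them, across genes. Over all genes tested the log2 fold change had a median of -0.01, and list medians below are to be set beside it. The balance of the directions rested on the scaling between libraries. With TMM scaling 47.8% of called genes were higher, whereas with library size alone the median log2 fold change moved to -0.18 and 23.3% of called genes were higher, with 603 higher and 1983 lower. Below, ± after a log2 change is its standard error (SE) from the fit, and list counts are at an FDR of 1%.

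**Figure D1:**
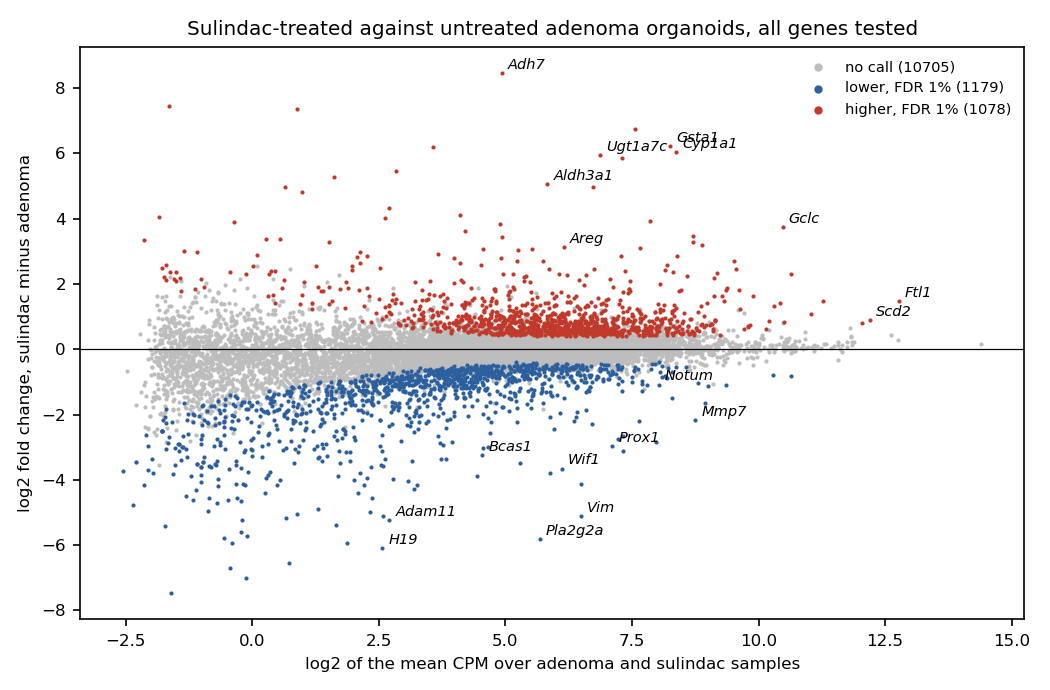
Each point is 1 of 12962 genes tested. The horizontal axis is the log2 of its mean CPM over the 6 samples and the vertical axis its log2 fold change, sulindac minus adenoma. The 1078 genes called higher (red) include highly expressed genes such as Gclc and Ftl1, and the 1179 called lower (blue) reach their largest changes at low to middle levels, as for Vim and Pla2g2a.

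The targets of the drug came first. Ptgs1, which encodes the constitutive cyclooxygenase, stood at 35.2, 42.9 and 40.2 CPM in adenoma and at 22.3, 28.6 and 39.01 CPM in sulindac, ranges that overlapped, and it was not called (log2 fold change -0.38 ± 0.19 (SE), adjusted p = 0.153). Ptgs2, the inducible form, had 0 counts in all 6 samples. Of the 15 prostanoid and eicosanoid genes tested, 3 were higher and 2 lower, with a median log2 fold change of 0.05. Pla2g4a, the cytosolic phospholipase that frees arachidonic acid from membranes, was at 8.20, 3.33 and 3.85 CPM in adenoma and 62.0, 50.8 and 53.9 CPM in sulindac. It rose by 3.45 ± 0.32 on the log2 scale (adjusted p = 0.000255). Cbr1, a carbonyl reductase that acts on prostaglandin E2 among many substrates, rose by 2.43 ± 0.21 (adjusted p = 0.000201), from a mean of 90.1 ± 27.2 CPM (SD, n = 3) to 479.9 ± 50.3. Ptgds, a prostaglandin D synthase, fell by 1.97 on the log2 scale (SE 0.35, adjusted p = 0.0039). The microsomal prostaglandin E synthase gene Ptges had 11.9, 10.1 and 12.03 CPM in adenoma and 9.36, 8.55 and 6.96 CPM in sulindac, and was not called (adjusted p = 0.0614). Slco2a1, a prostaglandin carrier, was the other higher member, at 0.33 to 0.728 CPM in sulindac and 0.0842 to 0.145 CPM in adenoma. Hdc, which makes histamine, was lower (adjusted p = 0.000235), with 1.46, 1.65 and 2.32 CPM in adenoma and 1 read in all 3 sulindac samples together. Leaving out 1 sample left 2 or 3 of the list higher and 1 or 2 lower.

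**Figure D2:**
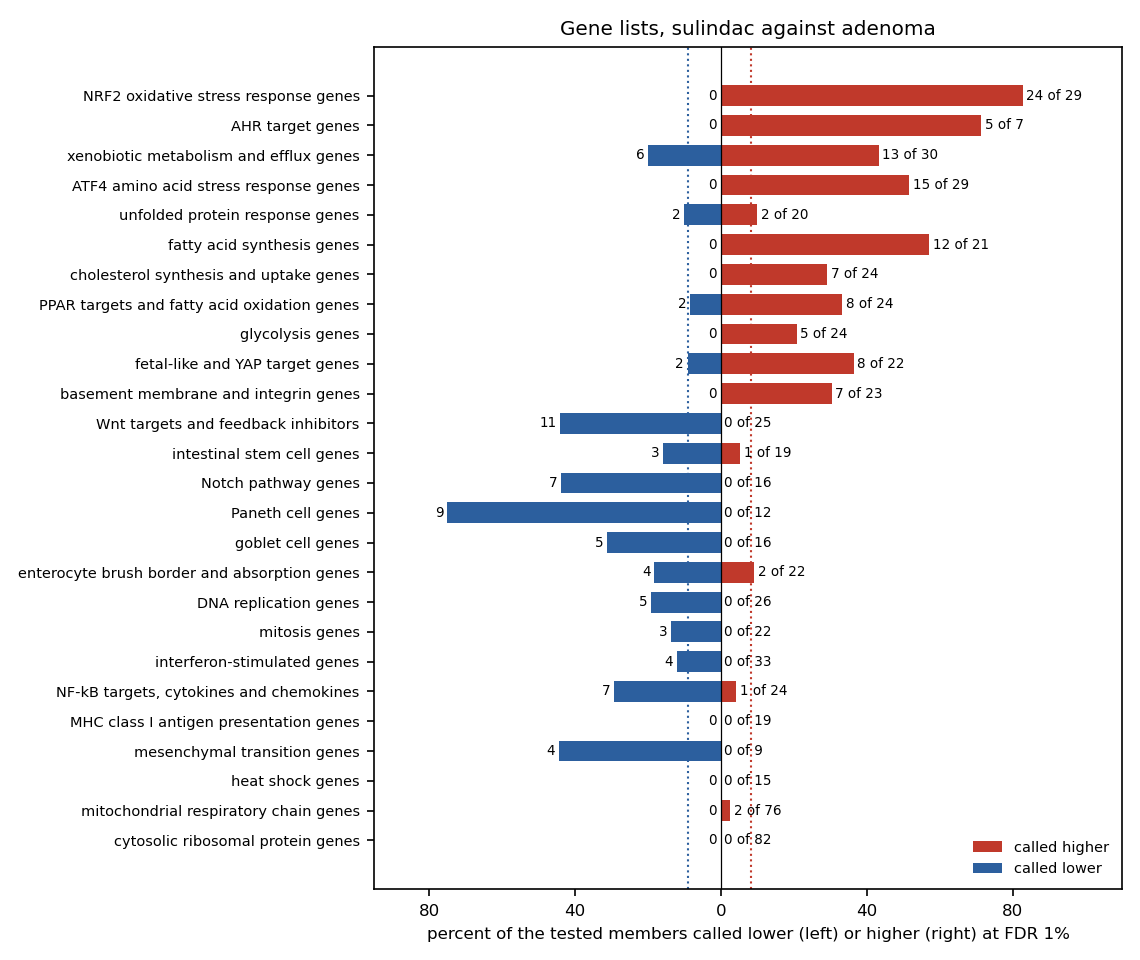
Bars give the percent of tested members of each gene list called higher (right, red) or lower (left, blue) in sulindac at an FDR of 1%, with the counts beside them. Dotted lines mark the shares over all genes, 8.32% higher and 9.10% lower. The NRF2 list has 24 of 29 members higher, the Paneth cell list 9 of 12 lower, and the ribosomal protein list none of 82 in either direction.

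The NRF2 oxidative stress response genes rose together more completely than any other list. Of 29 members, all tested, 24 were higher and 0 lower (82.8%), and their median log2 fold change was 1.49. Gclc, the catalytic subunit of the rate-limiting enzyme of glutathione synthesis, was at 213, 159 and 225 CPM in the adenoma samples and at 2798, 2305 and 2836 CPM in the sulindac samples. Its rise of 3.75 ± 0.18 on the log2 scale (adjusted p = 3.99e-05) put it among the genes with the largest gains in CPM of all. Gclm, the regulatory subunit, went from 91.6, 61.1 and 81.6 CPM to 775, 775 and 719 CPM, a log2 change of 3.29 ± 0.16 (adjusted p = 3.99e-05). Slc7a11, the transporter that brings in cystine as the raw material, went from 122, 87.3 and 74.0 CPM to 809, 745 and 1009 CPM (log2 change 3.19 ± 0.22). In each of these genes the lowest sulindac sample lay several-fold above the highest adenoma sample, while the MIN samples, at 146 to 179.5 CPM for Gclc and 96.2 to 108 CPM for Gclm, stood close to untreated adenoma.

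The other arms of the NRF2 list moved the same way. Srxn1, which repairs over-oxidized peroxiredoxins, rose by 3.46 ± 0.18 on the log2 scale, the thioredoxin reductase gene Txnrd1 by 1.64 ± 0.11, and Prdx1, a peroxiredoxin, by 0.85 ± 0.12. The quinone reductase gene Nqo1 was at 116, 73.8 and 131 CPM in adenoma and at 431, 415 and 419 CPM in sulindac, a log2 change of 2.00 ± 0.19 (adjusted p = 0.000291). Among the enzymes that renew NADPH, Pgd rose by 2.70 ± 0.25 and G6pdx by 1.13 ± 0.11, both of the oxidative branch of the pentose phosphate pathway, while Tkt and Taldo1 of its other branch rose by 1.33 ± 0.14 and 1.41 ± 0.13. Glutathione transferases, which couple glutathione to electrophiles, were also among the risers. Gstm1 went from a mean of 536 ± 57.0 CPM to 2654 ± 393 CPM, and Gsta1 from 11.8, 3.22 and 9.33 CPM to 649, 470.1 and 689 CPM, the largest change of the list at 6.23 ± 0.45 on the log2 scale. Gsta1 shares 90.5% of its 50-base stretches with transcripts of Gsta2, Gm3776 and Gm10639, and reads of these genes may have been divided among them. The efflux pump gene Abcc4 rose by 2.09 ± 0.16.

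Ferritin showed an unequal change of its subunits. Ftl1, the light chain, went from 3265, 2847 and 5093 CPM to 10115, 10590 and 9970 CPM, the largest gain in CPM of any gene, with a log2 change of 1.47 ± 0.21 (adjusted p = 0.00152). Pseudogenes share 50.9% of its 50-base stretches. Fth1, the heavy chain, was at 2146, 2655 and 3944 CPM in adenoma and at 2601, 3657 and 3187 CPM in sulindac, with overlapping ranges (adjusted p = 0.694). The genes of the regulator itself were not called. Nfe2l2 changed by 0.09 ± 0.10 on the log2 scale (adjusted p = 0.518) and Keap1 by 0.19 ± 0.09 (adjusted p = 0.161). The remaining members without a call were Txn1 (0.38 ± 0.16, adjusted p = 0.0991) and Cbr3 (1.88 ± 0.47, adjusted p = 0.0154). When each sample was left out in turn, 22 to 25 members were called higher, and 24 with library size alone.

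The NRF2 binding element has the core TGACNNNGC, where N is any base. It was searched on both strands in the 250 bases before the gene starts that RefSeq gives on GRCm38.p6, a later mouse build than the one behind the counts. A promoter was given for 9727 of the genes tested, and 14.2% of these held a match. Of the 24 NRF2 list members that rose, 20 had a promoter and 6 held a match (30%), which were Gclm, Txnrd1, Gsta3, G6pdx, Abcc4 and Prdx1. The TCF site CTTTGA, searched for another list below, occurred in 5 of the same 20 promoters (25%) and in 12.8% of all, and neither share was tested. The stretches of 5 of these, with the core in capitals, are shown as examples from glutathione synthesis, the thioredoxin system, the transferases and the pentose phosphate pathway.
Gclm, chr3:122245393-122245461, plus strand: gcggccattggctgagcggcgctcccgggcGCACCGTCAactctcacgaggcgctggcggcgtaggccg
Txnrd1, chr10:82859084-82859152, plus strand: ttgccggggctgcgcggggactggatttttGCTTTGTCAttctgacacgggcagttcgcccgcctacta
Gsta3, chr1:21240434-21240502, plus strand: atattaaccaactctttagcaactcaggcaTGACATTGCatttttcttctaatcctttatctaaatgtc
G6pdx, chrX:74428899-74428967, minus strand: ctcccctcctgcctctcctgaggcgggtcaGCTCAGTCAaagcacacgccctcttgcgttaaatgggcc
Prdx1, chr4:116685436-116685504, plus strand: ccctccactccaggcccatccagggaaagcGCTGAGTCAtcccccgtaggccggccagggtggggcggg
The core before Gsta3 lies in the orientation of the gene and the others in the opposite one. They start 134, 92, 121, 57 and 133 bases before the gene starts, in the order shown. Abcc4, not shown, had 1 match before each of 2 starts, in opposite orientations. A match describes the sequence and does not show binding, and no match in this window says nothing about elements farther away, where many known NRF2 sites lie.

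The AHR targets formed the second group with strong rises. Of 7 members tested, 5 were higher and 0 lower, with a median log2 fold change of 2.84. Cyp1a1, the monooxygenase by which AHR activity is usually read, was at 19.4, 3.498 and 6.81 CPM in adenoma and at 705, 688 and 555 CPM in sulindac, a log2 change of 6.05 ± 0.58 (adjusted p = 0.000309). Cyp1b1, its relative, went from 58.6, 25.4 and 31.0 CPM to 278, 260.3 and 279.5 CPM (2.84 ± 0.29). Aldh3a1, an aldehyde dehydrogenase, went from 4.38, 1.93 and 3.62 CPM to 91.1, 128 and 113 CPM (5.07 ± 0.27). Tiparp, which encodes an enzyme that limits AHR activity, rose by 1.09 ± 0.09. Ugt1a6a, a glucuronidation enzyme gene and the other called member, had a log2 change of 3.61 (adjusted p = 0.000295). Of its 50-base stretches 52.1% also occur in other genes, Ugt1a7c and Ugt1a6b among them, and reads may have been divided among these genes. The scatter of Cyp1a1 among the untreated samples was wide, but no sulindac sample came near them. In MIN organoids Cyp1b1 and Aldh3a1 were below 1 CPM and Cyp1a1 was at 0.378 to 3.48 CPM. The AHR gene itself, Ahr, was at 133, 169 and 134 CPM in adenoma and 117, 130.2 and 155 CPM in sulindac (adjusted p = 0.592), and the repressor gene Ahrr was not called (0.52 ± 0.21, adjusted p = 0.0906). The 5 calls held in every fit that left out 1 sample and with library size alone. The AHR element core GCGTG, searched in the same way, occurred in the promoters of 3 of 4 of the called members that had one, and in 50.3% of those of all genes tested, so a match to so short a core is common. The stretch before Cyp1a1 is shown because it is the most raised AHR target, with the core in capitals, starting 54 bases before the gene start in the same orientation.
Cyp1a1, chr9:57697529-57697593, plus strand: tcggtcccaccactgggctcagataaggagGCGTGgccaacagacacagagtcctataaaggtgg

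Drug-metabolizing and efflux genes moved in both directions. Of 30 tested, 13 were higher and 6 lower, with a median log2 fold change of 0.53. Without sulindac replicate 3 the lower count was 3, and without sulindac replicate 1 or 2 it was 4. Glucuronidation enzymes and efflux pumps were among the genes that rose. Ugt1a7c went from 5.76, 2.60 and 2.78 CPM to 187, 264 and 235 CPM (5.95 ± 0.32 on the log2 scale, adjusted p = 3.99e-05) and Ugt1a1 from a mean of 9.98 ± 2.88 to 82.6 ± 9.06 CPM. The Ugt1a genes share their last exons, and 53.7% and 58.2% of the 50-base stretches of these genes occur in others, so which family member rose is uncertain. Abcb1a, the multidrug pump P-glycoprotein, was at 48.9, 42.6 and 36.6 CPM in adenoma and at 389, 359.9 and 338 CPM in sulindac (3.10 ± 0.14, adjusted p = 3.99e-05), close to the 316 to 431 CPM of MIN. Abcc3, which exports conjugates, rose by 2.38 ± 0.22, and Abcc2 by 2.92 ± 0.17, the latter to 21.2 to 24.6 CPM against 251 to 340.5 CPM in MIN. All of the symbols beginning with Abcc considered together had 5 of 8 tested genes higher and none lower, the highest share of the 207 symbol families with 8 or more tested genes.

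Several carboxylesterases split by direction. Ces1f rose by 5.47 ± 0.41 and Ces2c by 4.32 ± 0.43, from below 1 CPM in each adenoma sample, whereas Ces2a had a log2 change of -2.34 (SE 0.27) and Ces2e one of -2.42 (SE 0.22). Ces2e stood at 24.1, 27.1 and 20.8 CPM in adenoma and at 5.73, 4.32 and 3.29 CPM in sulindac. All 4 of these stood higher in MIN, where Ces1f, the lowest of them, was at 125 CPM or more. Among aldehyde dehydrogenases Aldh1a1, which oxidizes retinal, rose by 2.86 ± 0.23 to 516, 576 and 679 CPM, while mitochondrial Aldh1b1 was at 228, 315 and 319 CPM in adenoma and at 27.4, 46.6 and 24.0 CPM in sulindac, a log2 change of -3.13 (SE 0.25, adjusted p = 0.000148). Over the whole Aldh family of 18 tested genes, 8 were higher and 4 lower.

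**Figure D3:**
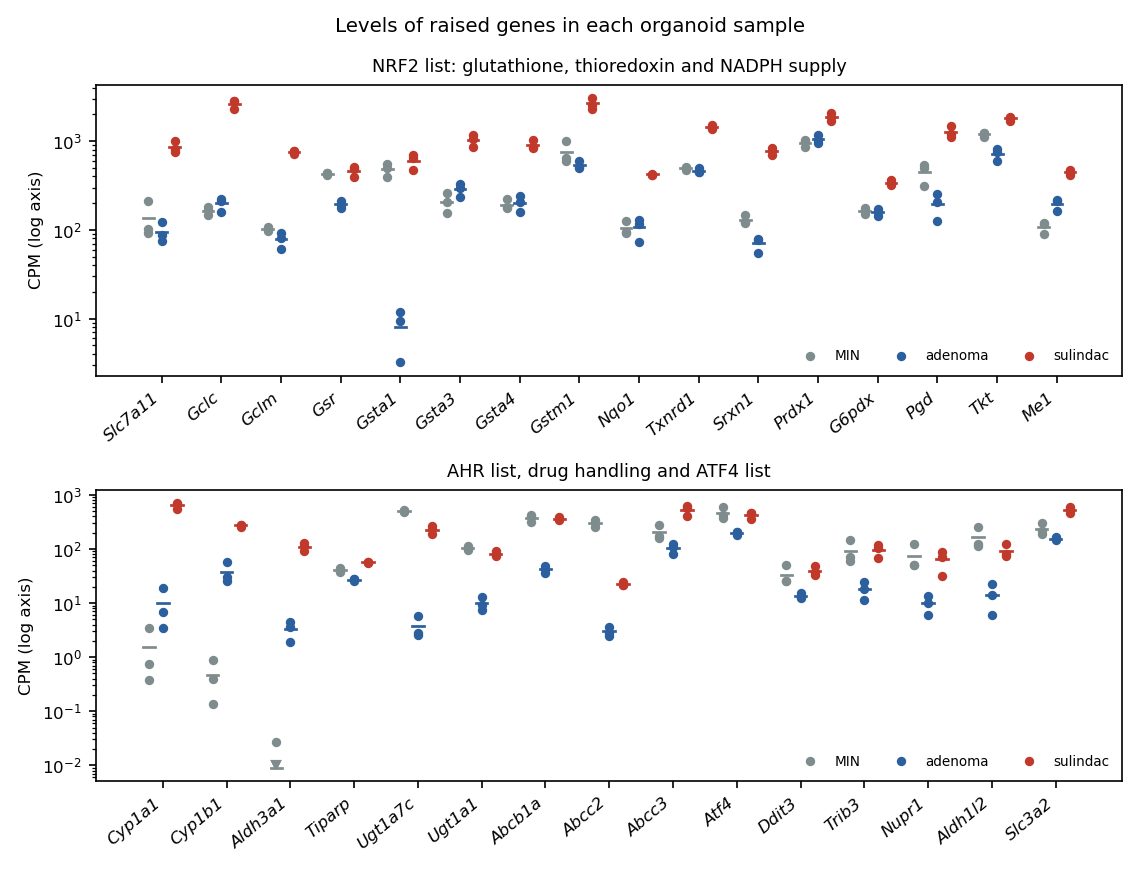
Points are the CPM of single samples on a log axis and short lines the means of the 3 samples in MIN (grey), adenoma (blue) and sulindac (red). Triangles at the lower edge mark samples with 0 counts. The genes shown were picked from those called higher. All 3 sulindac points lie above all 3 adenoma points in each, as in all 1078 genes called higher. For Cyp1a1, Cyp1b1 and Aldh3a1 the MIN samples lie below both groups.

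Genes of the ATF4 response to amino acid shortage rose as another group. Of 29 tested, 15 were higher and 0 lower, with a median log2 fold change of 0.95. Atf4 was at 207, 207 and 181 CPM in adenoma and at 364, 458 and 468 CPM in sulindac, a log2 change of 1.12 ± 0.12 (adjusted p = 0.000493). Ddit3, the stress-induced factor CHOP, went from 12.9, 12.5 and 15.2 CPM to 33.3, 37.04 and 48.1 CPM (1.56 ± 0.16), and Trib3, a pseudokinase that it induces, from 18.03, 24.6 and 11.4 CPM to 69.6, 104 and 120.2 CPM (2.45 ± 0.29). Slc3a2, the partner chain of Slc7a11 and of other amino acid transporters, rose by 1.78 ± 0.12. For most of these genes adenoma replicate 3 was the lowest untreated sample and sulindac replicate 1 the lowest treated one. Nupr1, a stress-induced nuclear protein, was such a case, with 6.09 CPM in the former and 32.2 CPM in the latter, without overlap as in every called gene (2.71 ± 0.40). The serine synthesis gene Psat1 (0.83 ± 0.23, adjusted p = 0.0248) and Mthfd2 (1.21 ± 0.31, adjusted p = 0.0176) were not called. The count of 15 fell to 8 without sulindac replicate 3, 9 without sulindac replicate 2 and 10 without sulindac replicate 1. The unfolded protein response genes of the endoplasmic reticulum, which share Ddit3 as an output, behaved differently, with 2 of 20 higher, 2 lower and a median of -0.17. Leaving out 1 sample left 0 to 2 in each direction. Hspa5, its chaperone BiP, was at 512, 525 and 594 CPM against 447, 515 and 506 CPM (adjusted p = 0.34). With library size alone 0 were higher and 7 lower.

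Lipid and sugar metabolism showed smaller rises. Of 21 fatty acid synthesis genes, 12 were higher and 0 lower, with a median log2 fold change of 0.52. Scd2, a desaturase that makes monounsaturated fatty acids, went from 3772, 3211 and 2942 CPM to 5881, 6536 and 5790 CPM (0.89 ± 0.14), and Fasn, the fatty acid synthase, from 429, 417 and 348 CPM to 718, 632 and 691 CPM (0.78 ± 0.13). The steepest rises were those of Acacb, an acetyl-CoA carboxylase of the mitochondrial surface (1.58 ± 0.28), and Lpin2, a phosphatidate phosphatase (1.44 ± 0.12). Most of these changes were close to the threshold, and the count fell to 3 without sulindac replicate 3, 4 without sulindac replicate 1 or 2, 6 without adenoma replicate 2, 8 without adenoma replicate 1 and 7 with library size alone. Of 24 cholesterol genes 7 were higher and 0 lower, with a median of 0.51, among them Lss (0.94 ± 0.19) and Sc5d (0.87 ± 0.10). That count fell to 2 without sulindac replicate 1 or 3, 3 without adenoma replicate 2 or sulindac replicate 2, and 4 with library size alone. Among 24 PPAR targets and fatty acid oxidation genes, 8 were higher and 2 lower. Cpt1a, which admits fatty acids to mitochondria, rose by 1.01 ± 0.12. The 8 became 5 without adenoma replicate 2 or sulindac replicate 1 or 2, and the 2 became 0 without sulindac replicate 1 or 3. Of 24 glycolysis genes 5 were higher, among them the glucose carrier gene Slc2a1 (0.92 ± 0.11) and the hexokinase gene Hk1 (0.94 ± 0.11). That count was 2 when adenoma replicate 2 or any 1 sulindac sample was left out, and 3 without adenoma replicate 1 or with library size alone.

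The list of ion, metal and solute transporters, 25 genes tested, had 5 higher and 2 lower, with a median of 0.41. The 5 became 3 without adenoma replicate 2 or sulindac replicate 2 or 3, with library size alone and with a replicate block. The 3 with the largest rises handle iron. Heph and Slc40a1, the ferroxidase and the transporter by which enterocytes release iron, rose by 1.72 ± 0.19 and 1.18 ± 0.12 on the log2 scale. Tfrc, the transferrin receptor, was at 190.4, 127 and 111 CPM in adenoma and at 215, 342 and 313 CPM in sulindac (1.03 ± 0.23, adjusted p = 0.00981), and kept its call in 6 of 14 alternative fits.

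The Wnt targets and feedback inhibitors fell or stayed. Of 25 tested, 11 were lower and 0 higher, with a median log2 fold change of -0.77. Several are secreted or membrane inhibitors. Wif1, which binds Wnt ligands, was at 61.3, 199 and 124 CPM in adenoma and at 4.71, 16.9 and 8.85 CPM in sulindac, a log2 change of -3.65 (SE 0.52, adjusted p = 0.00153). Notum, an enzyme that removes the lipid of Wnt proteins, went from 275, 393 and 395 CPM to 145, 180.1 and 173 CPM, a log2 change of -1.08 (SE 0.15). Apcdd1, a membrane inhibitor, went from 75.2, 106 and 63.9 CPM to 19.5, 35.5 and 22.9 CPM, a log2 change of -1.65 (SE 0.25). For all 3 genes MIN organoids had still lower levels, between 0.414 and 8.14 CPM, so that the treated adenoma samples lay between the other groups. Transcription factors of the list fell as well. Prox1 was at 235, 374 and 128 CPM in adenoma and at 21.6, 38.1 and 34.0 CPM in sulindac (log2 change -2.97, SE 0.38), Sp5 at 41.2, 55.1 and 63.0 against 16.5, 25.2 and 17.2 CPM (log2 change -1.42, SE 0.19), and Tcf7 fell by 0.62 (SE 0.10). Sfrp5, Dkk3, Bambi, Wnt10a and Ephb3 were the other lower members. Sfrp5 and Dkk3 were near the floor in sulindac, with 4 and 8 reads over the 3 samples.

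The most used reporters of the pathway were among the 14 members without a call. Axin2 was at 683, 869.7 and 642 CPM against 556, 646 and 603 CPM, overlapping ranges that differed by -0.27 ± 0.14 on the log2 scale (adjusted p = 0.166). Rnf43, a receptor ligase, had a log2 fold change of 0.11 ± 0.11 and Ccnd2 one of 0.25 ± 0.20. Nkd1, an inhibitor inside the cell, did not overlap between groups, at 626, 849 and 761 CPM against 225, 464 and 383 CPM, but missed the threshold (adjusted p = 0.0102). The count of 11 fell to 5 without sulindac replicate 3, was 8 to 11 without any other sample, and was 15 with library size alone. Wif1 kept its call in 11 of 14 alternative fits. Of 10 tested genes whose symbols begin with Wnt 4 were lower and 0 higher, and of 9 with the symbol Tcf 5 were lower and 1 higher, the highest shares of lower genes among the symbol families. The symbol Tcf does not stand for the TCF factors of the Wnt pathway alone. Of the lower genes Tcf7 and Tcf7l1 are such factors, whereas Tcf3, Tcf4 and Tcf12 encode proteins of another family. Tcf4 fell by 1.41 (SE 0.24). Tcf7l2, a TCF factor of the Wnt pathway, was the higher gene and rose by 0.49 ± 0.10. The TCF site CTTTGA was found before the start of 1 of the 6 called Wnt list members with a promoter, against 12.8% of all genes tested. That gene, Sp5, is shown with the first of its 2 matches in capitals.
Sp5, chr2:70474689-70474754, plus strand: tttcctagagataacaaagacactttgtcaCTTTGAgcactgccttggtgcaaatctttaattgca

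Genes of stem cells gave few calls, 3 lower and 1 higher of 19 tested, with a median of -0.38. Igfbp4 fell from 617, 684 and 821 CPM to 321, 366 and 275 CPM (log2 change -1.13, SE 0.14) and Mex3a, an RNA-binding protein gene, from 58.8, 63.3 and 44.8 CPM to 17.4, 22.1 and 15.3 CPM (log2 change -1.60, SE 0.18). Msi1, another RNA-binding protein gene, was the other lower member, and Soat1, which stores cholesterol as esters, the higher one. Leaving out 1 sample left 2 or 3 lower. Olfm4, a marker of crypt base cells, was too low in both groups to be tested.

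Genes of the secretory lineages were called unevenly. Paneth cells are the antimicrobial secretory cells at the crypt base, and 9 of the 12 Paneth cell genes tested were lower and 0 higher, with a median log2 fold change of -1.90. Itln1, an intestinal lectin, was at 224, 204 and 348 CPM in adenoma and at 29.7, 56.9 and 27.6 CPM in sulindac, a log2 change of -2.76 (SE 0.30, adjusted p = 0.000485). Ang4, an antimicrobial ribonuclease, went from 22.9, 81.4 and 29.4 CPM to 4.91, 7.94 and 3.90 CPM (log2 change -2.99, SE 0.50, called in 10 of 14 alternative fits). The defensin gene Defa24 went from 7.38, 20.8 and 16.1 CPM to 3.30, 3.19 and 5.56 CPM (log2 change -1.86, SE 0.38). These levels were small beside MIN, where Itln1 was at 3613 to 4416 CPM and Defa24 at 3424 to 4269 CPM. Lyz1, the Paneth cell lysozyme, did not pass the test, at 27.8, 69.6 and 27.3 CPM against 14.4, 16.2 and 9.34 CPM (adjusted p = 0.0117). Adenoma replicate 2 was the highest sample for Ang4, Lyz1 and Defa24. The other called members were Guca2b, Wnt3 and Dll4. Guca2b is not particular to Paneth cells, and Dll4 is also counted in the Notch list below. The 4 defensins called share from 28.1% (Defa24) to 99.7% (Defa5) of their 50-base stretches with other genes and are not independent counts. Without single samples, the count of 9 became 3 without sulindac replicate 1 or 3, 4 without sulindac replicate 2, 5 without adenoma replicate 2 or 3, and 11 without adenoma replicate 1.

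Goblet cells secrete mucus. Of 16 goblet cell genes 5 were lower and 0 higher, with a median of -1.01. Agr2, a mucin-folding enzyme of the endoplasmic reticulum, went from 27.2, 30.4 and 35.6 CPM to 9.13, 8.19 and 5.21 CPM (log2 change -2.03, SE 0.21) and Bcas1 from 47.1, 43.5 and 35.5 CPM to 3.92, 5.46 and 3.78 CPM (log2 change -3.25, SE 0.18, adjusted p = 4.12e-05). The main mucin gene Muc2 was below 1 CPM in all 6 samples and was not called (adjusted p = 0.668), nor was Tff3 (adjusted p = 0.0865). Atoh1, the factor that commits cells to the secretory lineages, was at 2.02, 1.62 and 0.927 CPM against 1.65, 1.01 and 0.728 CPM (adjusted p = 0.449). Of 5 enteroendocrine genes tested 1 was higher and 1 lower. Ddc, which makes dopamine and serotonin from their precursors, went from 11.8, 6.04 and 5.25 CPM to 57.4, 57.0 and 43.2 CPM (2.78 ± 0.30), and Reg4, a secreted lectin, from 10.9, 40.7 and 20.8 CPM to 2.21, 3.22 and 1.54 CPM (log2 change -3.37, SE 0.48).

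The Notch pathway, by which neighboring cells divide into secretory and absorptive fates, had 7 of 16 genes lower and 0 higher, with a median of -0.61. The ligand genes Dll1 and Dll4 had log2 changes of -1.44 (SE 0.21) and -1.93 (SE 0.26), from 4.32 to 5.39 CPM and 6.29 to 8.79 CPM in adenoma to 1.55 to 2.18 CPM and 1.40 to 2.44 CPM in sulindac. The receptor gene Notch1 went from 73.4, 81.7 and 56.0 CPM to 41.1, 39.3 and 39.4 CPM (log2 change -0.81, SE 0.15). Its target Hes1 fell by 0.57 (SE 0.13, adjusted p = 0.0099), and Hes6, which opposes Hes1, had a log2 change of -0.96 (SE 0.14). The lower genes thus included 2 ligand genes, a receptor gene and the target Hes1, while 9 members of the list were not called. The count of 7 lower genes became 1 without sulindac replicate 3, 3 without sulindac replicate 1, and 5 or 7 without any other sample.

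**Figure D4:**
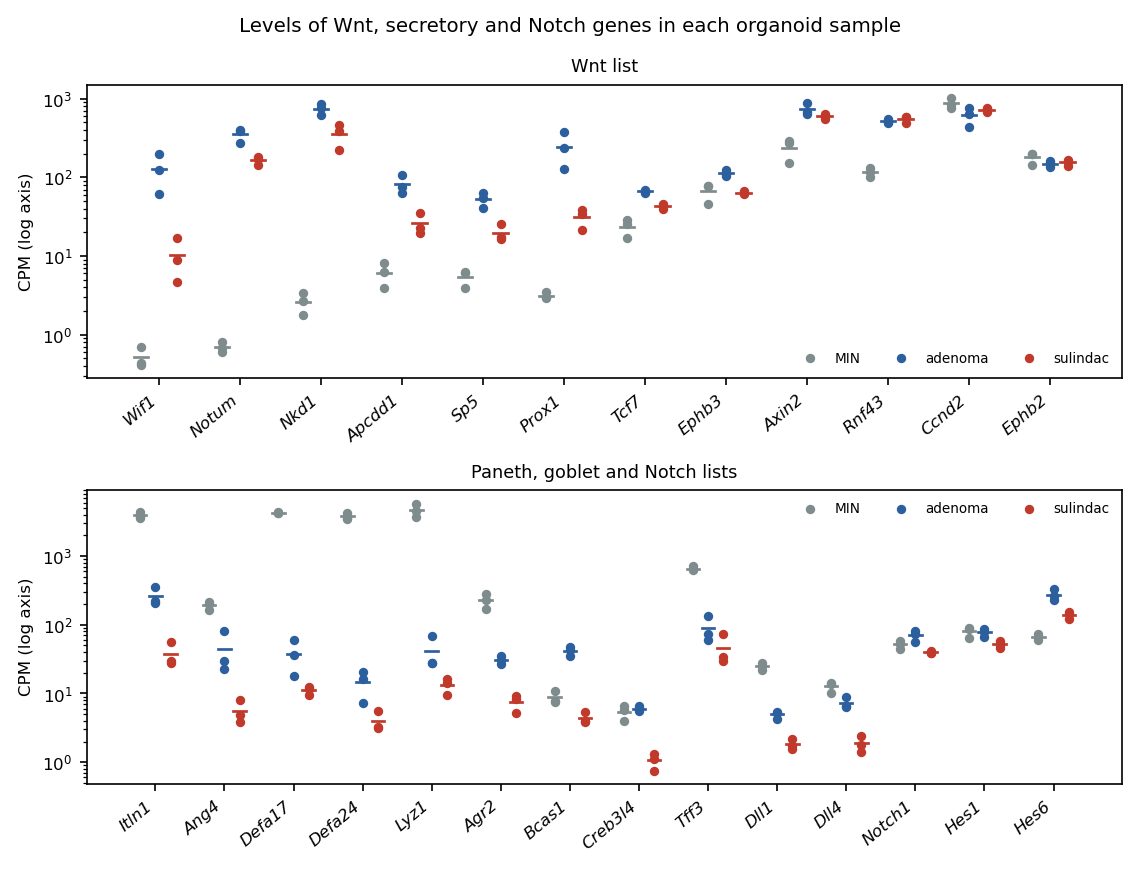
Points are the CPM of single samples on a log axis and short lines the means of the 3 samples in MIN (grey), adenoma (blue) and sulindac (red). For Wif1, Notum, Apcdd1, Sp5 and Prox1 the sulindac samples lie between adenoma and MIN, while Axin2, Rnf43, Ccnd2 and Ephb2 overlap between adenoma and sulindac. For Itln1, Ang4, the defensins and Agr2 the sulindac samples lie below adenoma, which in turn lies far below MIN.

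Of 22 brush border and absorption genes tested, 2 were higher and 4 lower, and 16 of the 22 log2 changes were negative, with a median of -0.61. In counts of calls, 1 or 2 were higher and 2 to 6 lower when 1 sample was left out. Cdhr2, a protocadherin of the microvilli, rose from 84.5, 64.4 and 78.0 CPM to 145, 125 and 139 CPM (0.86 ± 0.13). Anpep, an aminopeptidase, fell from 43.2, 76.8 and 54.2 CPM to 7.45, 24.99 and 17.1 CPM, and Cubn, an endocytic receptor, from 91.4, 126 and 69.7 CPM to 17.5, 29.5 and 21.2 CPM. The sucrase gene Sis was below 3 CPM in both groups, against 1541 to 1687 CPM in MIN.

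Proliferation genes shifted downward with few calls. Of 26 DNA replication genes 5 were lower and 0 higher, with a median of -0.64, and of 22 mitosis genes 3 were lower and 0 higher, with a median of -0.40. Mcm2, a subunit of the replicative helicase, went from 129, 153 and 115 CPM to 63.5, 87.8 and 66.1 CPM (log2 change -0.86, SE 0.15), Tyms, the thymidylate synthase, fell by 0.79 (SE 0.10), and Ccnb2, a mitotic cyclin, had a log2 change of -0.84 (SE 0.11). The proliferation marker Mki67 was at 467, 414 and 265 CPM against 280.0, 274 and 293 CPM, so that adenoma replicate 3 lay within the sulindac range (adjusted p = 0.127). Pcna was not called either (adjusted p = 0.742). Adenoma replicate 3 weighed on both lists. Without it the counts were 11 of the DNA replication and 10 of the mitosis genes. The DNA replication count was 11 without sulindac replicate 2, 2 without adenoma replicate 1 and 1 without any other sample. The mitosis count was 1 without any sample other than adenoma replicate 3. With library size alone the counts were 13 and 12. The 27 p53 targets and CDK inhibitors tested had 2 higher and 2 lower and a median of 0.00, and among 21 apoptosis genes 4 were higher and 2 lower. Leaving out 1 sample left 0 to 3 p53 list members higher and 0 to 2 lower, and 2 to 4 apoptosis genes higher and 1 to 3 lower. The calls included members on both sides of cell death. Bcl2l1, which protects cells, rose by 0.81 ± 0.11 and Bcl2l11, which kills them, by 1.04 ± 0.11, while Bmf, a killer of the same class, fell by 1.71 (SE 0.26).

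Immune and cytokine genes outside the study's parainflammation (PI) signature were mostly low in these epithelial cultures. Of 24 NF-kB targets, cytokines and chemokines tested, 7 were lower and 1 higher, with a median of -0.32. Il23a, a cytokine subunit, went from 7.16, 12.7 and 11.7 CPM to 2.14, 3.04 and 3.06 CPM (log2 change -1.93, SE 0.25, adjusted p = 0.0011), Csf1, the macrophage growth factor, from 4.24, 4.25 and 4.09 CPM to 1.71, 1.96 and 1.31 CPM, and Ltb, lymphotoxin beta, from 1.12, 1.34 and 2.49 CPM to 6 reads in all 3 sulindac samples. Cxcl16, a membrane-bound chemokine, rose by 1.11 ± 0.24, but was not called when adenoma replicate 3 or any 1 sulindac sample was left out. Of 13 mucosal defense genes 4 were lower, Tlr5, Ffar2, Lypd8 and Nod1, and 1, Nlrp6, was higher. Nod1, a sensor of bacterial cell walls, went from 4.58, 4.87 and 4.26 CPM to 1.65, 1.32 and 0.873 CPM (log2 change -1.83, SE 0.26). Of 33 interferon-stimulated genes 4 were lower and 0 higher, with a median of -0.62. Ifitm1, which restricts viral entry, went from 391, 461 and 467 CPM to 38.9, 103 and 43.0 CPM (log2 change -2.83, SE 0.34, adjusted p = 0.000732), whereas Irgm1 fell by 0.88 (SE 0.15). The interferon count was 1 without sulindac replicate 3, 2 without adenoma replicate 1 or sulindac replicate 1 or 2, and 8 with library size alone. The cytokine count of 7 became 4 without adenoma replicate 2, sulindac replicate 1 or sulindac replicate 3. Of the 19 MHC class I genes tested, edgeR called 0. At an unadjusted p under 0.05, 3 were higher and 6 lower, DESeq2 called 1 higher and 3 lower, library size alone gave 2 lower, and without adenoma replicate 3 there were 2 higher.

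Markers of other cells were at low levels in all 6 samples, and their sums were lower in the treated ones. The 8 epithelial markers, such as Epcam and Cdh1, summed to 3553 to 4712 CPM in adenoma and 4962 to 5820 CPM in sulindac. The 16 leukocyte markers summed to 8.65 to 17.0 CPM in adenoma and 3.25 to 4.32 CPM in sulindac, of which only Cd68 and Cd8a could be tested. Cd68, a lysosomal protein of macrophages that other cells also make, supplied most of that sum and was lower, at 10.4, 7.95 and 16.2 CPM against 3.86, 2.85 and 3.20 CPM. The leukocyte marker Ptprc had 4 to 8 reads per adenoma sample and 0 in sulindac. The 15 fibroblast, muscle and endothelial markers summed to 3.61 to 4.38 CPM in adenoma and 1.99 to 2.97 CPM in sulindac, with no read of Col1a2, Col3a1, Dcn or Lum. Of the 5 that could be tested, 4 had negative log2 changes and 1 a positive one. Col1a1 was called lower, a call that was lost with a replicate block and when any 1 sample was left out. The 10 mast cell markers summed to 0.435 to 1.06 CPM and 0.0873 to 0.215 CPM, with no read of Cpa3, Fcer1a, Ms4a2 or Tpsb2. Kit, the 1 of them that could be tested, had a log2 change of -2.82. It was not called in the main fit, but was called lower with a replicate block and with library size alone. The sums of the non-epithelial markers move in the same direction as Hdc, Ltb, Il23a and the mesenchymal genes, and their part in those results was not tested.

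Genes of the YAP and fetal-like programs, of the matrix and of growth factors changed in part. Of 22 fetal-like and YAP target genes 8 were higher and 2 lower, with a median of 0.48. Areg, the EGF family ligand amphiregulin, went from 15.1, 10.5 and 18.4 CPM to 92.1, 128 and 164 CPM (3.14 ± 0.25, adjusted p = 0.000149), which reaches the MIN levels of 71.1 to 244 CPM. Ctgf, a YAP target, went from 31.1, 26.8 and 36.98 CPM to 66.5, 101 and 149 CPM (1.75 ± 0.26), while Ankrd1, another, fell by 1.25 (SE 0.23), and Tead2, one of the factors that YAP binds, went from 102, 112 and 103 CPM to 31.9, 51.2 and 29.3 CPM (log2 change -1.49, SE 0.19). The 8 became 5 without sulindac replicate 1 or 3 and with library size alone. Of 22 EGF and MAPK genes 4 were higher, including the ligand gene Btc (1.28 ± 0.12) and the phosphatase gene Dusp4 (1.37 ± 0.11), and 1, Etv5, was lower, with a log2 change of -1.25 (SE 0.10). Of 23 basement membrane and integrin genes 7 were higher and 0 lower, led by the laminin chain Lamb3 (1.13 ± 0.12). That count was 1 without sulindac replicate 3, 2 without adenoma replicate 2 or sulindac replicate 1, and 3 with library size alone. Collagen genes as a symbol family (Col) went mostly the other way, with 1 of 15 tested higher and 5 lower, Col1a1 among the latter. Of 9 mesenchymal transition genes tested 4 were lower and 0 higher. Vim, the intermediate filament vimentin, went from 105, 261 and 158 CPM to 2.60, 8.52 and 3.93 CPM (log2 change -5.11, SE 0.48), and Mmp14, a membrane-bound protease, from 111, 119 and 121 CPM to 54.2, 56.5 and 49.6 CPM (log2 change -1.12, SE 0.09). That count was 2 without sulindac replicate 1 or 3. Of the BMP and TGF-beta genes, 3 of 19 were lower and 1 higher (0 without adenoma replicate 2 or any 1 sulindac sample), with Id3, a BMP target, going from 134, 123 and 148 CPM to 51.6, 32.0 and 23.1 CPM (log2 change -1.91, SE 0.26).

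The largest changes over all genes repeated these themes in part. Of the 15 largest rises among genes reaching a mean of 5 CPM, leaving out predicted genes, Gsta1, Cyp1a1, Ugt1a7c, Ces1f, Aldh3a1, Gsta2, Ces2c, Ugt1a6b, Gstm3 and Gclc act on foreign compounds or glutathione, as does Adh7, a retinol and alcohol dehydrogenase. Adh7 had the largest change of these, from 15, 3 and 0 reads in adenoma to 52.2, 65.4 and 64.6 CPM in sulindac. The other 4 were Acta1, Wdr65, Pgbd5 and Nlrp6. Among the 15, Gsta1, Gsta2, Gstm3, Ugt1a6b, Ugt1a7c and Ces2c share 28.8% (Gstm3) to 90.5% (Gsta1) of their 50-base stretches with other genes. These 6 entries are therefore not independent counts. Acta1, skeletal muscle actin, went from 6.06, 2.74 and 7.33 CPM to 215, 499.6 and 211 CPM (5.85 ± 0.47), and the cytoplasmic actin gene Actg1 from 1463, 1146 and 1361 CPM to 3950, 3706 and 3281 CPM (1.48 ± 0.14). The 15 largest falls were H19, Chrnd, Pla2g2a, Serpinf2, Adam11, Vim, Zap70, R3hdml, Vwa2, Cyp2c68, Ceacam10, Pnliprp1, Cd177, Cacna1a and Slc27a2. H19, an imprinted RNA that is abundant in fetal tissue, was at 2.78, 18.6 and 13.7 CPM in adenoma and at 0.297, 0.153 and 0.0582 CPM in sulindac. Zap70, a kinase best known in T cells, went from 6.43, 9.54 and 18.8 CPM to 0.198, 0.337 and 0.437 CPM. The T cell gene Cd3e had 1 or 2 reads in each of the 6 samples. The 16 leukocyte markers, Cd3e among them, summed to 8.65 to 17.0 CPM in adenoma and 3.25 to 4.32 CPM in sulindac. Cd68 and Cd8a, the 2 that could be tested, had negative log2 changes. Whether these markers bear on Zap70 was not tested. Cd177, a surface protein known from neutrophils, went from 65.7, 232 and 212 CPM to 5.24, 15.8 and 7.83 CPM. By loss of CPM the largest falls were those of Anxa4, Ptma, Mmp7, Ifitm3 and Ets2. Ets2, a transcription factor, went from 805, 1047 and 829.6 CPM to 369.8, 474 and 395 CPM (log2 change -1.10, SE 0.14).

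Some programs gave few or no calls. Of 82 cytosolic ribosomal protein genes 0 were called by edgeR in either direction, with a median log2 fold change of 0.06, and of 76 nuclear genes of the respiratory chain 2 were higher and 0 lower, also with a median of 0.06. Without adenoma replicate 3 the counts of higher genes were 9 and 11, and the respiratory chain count was 0 without any other sample. At an unadjusted p under 0.05, 3 ribosomal protein genes were higher and 1 lower, and DESeq2 called 1 higher and 0 lower. For the 15 heat shock genes, the 15 histone genes and the 8 tuft cell genes tested edgeR called 0, with medians of 0.16, 0.33 and -0.51. At an unadjusted p under 0.05 there were 5, 1 and 0 higher and 0, 2 and 3 lower, and DESeq2 called 3, 0 and 0 higher and 0, 1 and 1 lower. Leaving out 1 sample gave at most 1 heat shock gene higher, 2 histone genes lower and 1 tuft cell gene lower. Of 19 hypoxia-inducible genes 4 were higher, with a median of 0.17, a count that was 8 without adenoma replicate 3, 1 without adenoma replicate 1 or 2 or sulindac replicate 1 or 2, and 2 without sulindac replicate 3.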

How the data were processed

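RNA-seq was compared between 3 sulindac-treated and 3 untreated adenoma organoid samples. The authors deposited raw counts of reads per gene symbol. The submitters' processing notes name mm9, RSEM and Bowtie2 2.2.4. For MIN replicate 1 the deposited sum of its runs was used. Genes were filtered with filterByExpr, scaled by TMM and tested in edgeR 4.0.16 by glmQLFTest after a robust glmQLFit (limma 3.58.1, R 4.3.3) over the 6 samples, with Benjamini-Hochberg adjustment over all genes tested and an FDR of 1%. Each SE was taken as |log2 fold change|/√F. CPM was scaled by TMM over all 9 samples. Sequence sharing was computed from GENCODE M21 transcripts in stretches of 50 bases. In 27 rows the symbol had become a date. The SDs, SEs and p-values cover only the spread between these samples.

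The gene lists, the rule for named genes and the comparison were chosen with earlier results of these data known. Named were the 15 largest changes in each direction with a mean of at least 5 CPM, the 5 largest CPM differences, up to 3 called genes per list and direction, members given for their role, and symbol families of 8 or more genes. Sfrp5, Dkk3, Soat1, Slco2a1, Hdc, Ltb, Csf1, Cd68, Kit, Col1a1, Dll1, Actg1, Tcf3, Tcf4, Tcf12, Tcf7l1 and Tcf7l2 were named after their values were seen. Alternatives were RLE factors, library size alone, no filter, at least 10 counts in each sample, all 9 samples, a replicate block, DESeq2 1.42.0, an FDR of 5% and leaving out each sample. Some genes that the rule picked are not reported here.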

Additional observations from a re-analysis of the deposited data

How the results depend on the processing

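The counts of called genes depended on the number of samples and the scaling. With library size alone, 603 genes were higher, 1983 lower and 161 list members lower, and the median log2 change over genes was -0.18. It was 0.0104 with no low-count filter and 0.0075 with DESeq2, which called 1766 genes higher, 1732 lower and 159 list members lower. At an FDR of 5% 2034 genes were higher and 2374 lower, and 215 and 196 list members. Leaving out 1 sample gave 423 to 1403 genes higher, 386 to 1488 lower, 258 to 405 higher and 329 to 673 lower by at least 2-fold, 84 to 184 list members higher and 48 to 113 lower, and medians of -0.0178 to -0.0027. The lowest counts came without sulindac replicate 3. Counts also fell by over 1.5 times without adenoma replicate 2 (576 higher, 622 lower), sulindac replicate 1 (489 and 492) and sulindac replicate 2 (608 and 631). Of 146 calls of named genes none reversed, 13 were lost with library size alone, and 94 to 138 held when a sample was left out. Deviations of same-numbered samples correlated at 0.25, 0.23 and -0.03, and those of differently numbered samples at -0.34 to 0.10. With 3 samples per group these values cannot decide whether the replicate numbers pair the samples, and the main fit used no pairing. A fit with a replicate block called 872 higher and 1061 lower, and 1752 of these were also called, in the same direction, without it.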

Other observations

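Families taken whole by their symbols, chosen after the values were seen and given without a test, extended some of the lists. Of 22 tested glutathione transferases 15 were higher and 1, Gstz1, was lower, with a median log2 fold change of 1.22. Gss, the second enzyme of glutathione synthesis, went from 136, 106 and 168 CPM in adenoma to 660.5, 597 and 653 CPM in sulindac. Together with Slc7a11, Slc3a2, Gclc and Gclm, which were already counted in the lists above, all 5 genes from cystine import to glutathione were higher. Of the 7 pentose phosphate pathway genes 4 were higher and 0 lower. These 4, G6pdx, Pgd, Taldo1 and Tkt, were already in the NRF2 list, so this family added no called gene.

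The FGF receptor genes tested, Fgfr2, Fgfr3 and Fgfr4, were all lower, in a medium that contains bFGF. Fgfr4 went from 27.7, 33.6 and 32.3 CPM to 8.24, 10.5 and 9.23 CPM, and Fgfr2 from 46.4, 62.4 and 49.2 CPM to 15.4, 27.6 and 18.5 CPM. Bhlha15, a transcription factor of mature secretory cells, went from 45.5, 46.8 and 29.1 CPM to 1.85, 4.29 and 2.13 CPM, a log2 change of -3.87 (SE 0.33, adjusted p = 0.00017), and Myb, a factor of crypt progenitors, went from 31.9, 24.6 and 18.7 CPM to 7.32, 8.86 and 3.78 CPM. Tff3 and Atoh1, genes of the same lineage as Bhlha15, were not called.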
